A study of Mus musculus with 2 samples.

Results

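The kinesin superfamily was taken as the genes whose annotated symbol is Kif followed by a digit and whose annotated type is protein-coding, which gave 39 of the 21474 protein-coding genes in the tables. Of these, 38 encode proteins of the kinesin motor family. The remaining member, Kif1bp, encodes a protein that binds kinesins and carries no motor, and it was kept because the naming rule selects it. By known role, 12 members were placed with the mitotic kinesins, 12 with the kinesins of axonal transport and 9 with the ciliary kinesins, while 6 fitted none of these. A further 3 genes with such a symbol are not protein-coding (Kif16bos, Kif22-ps and Kif4-ps) and were left out.

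The RNA came from the hindbrain of embryos of mouse strain B6NCrl at 11.5 days of development, with no genetic change or treatment named in the labels. The design holds 1 group with 2 biological replicates, pool 1 from 109 embryos and pool 2 from 88, both of mixed sex and described as healthy. The input of each library was 10 ng of RNA above 200 nt in size, to which ERCC spike-ins (synthetic control RNAs) were added. The labels state no question beyond profiling the tissue, so the comparisons made here are between members, between classes and between the pools.

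Kinesins are motor proteins that use ATP to move along microtubules or to take their ends apart. In dividing progenitors they build the spindle, align chromosomes and complete cytokinesis, whereas in neurons they carry vesicles, organelles and RNA from the cell body along the axon. A further set moves material into the cilium, the antenna on which hedgehog signalling in the neural tube depends, or regulates its length. At this age the hindbrain wall holds dividing progenitors next to young neurons that are extending axons.

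Levels are given as TPM, the share of a transcript among all transcripts of a library, which is scaled by transcript length and therefore allows genes to be compared. Values are written as pool 1 followed by pool 2, or as mean ± SD with n = 2 libraries. Each pool is a single library, so no replicate stands behind a difference between them and no p-value is given. The libraries held 45340440 and 41261544 expected counts, of which 135767 and 122416 lay on the members. Spike-ins took 16.2% and 22.2% of TPM, so log2 of pool 2 over pool 1 was -0.11 for the median gene, and differences between the pools are given relative to that gene. Markers of both cell populations were abundant, with medians of 232 ± 30.7 TPM for 8 neuronal genes and 105 ± 30.97 TPM for 6 progenitor genes. Of 6 hindbrain position genes 5 were detected, against 1 of 5 forebrain genes, whose median was 0.31 TPM. All 5 listed genes each of red blood cells, endothelium and mesenchyme were also detected, and 5 skeletal muscle genes summed to 56.8 and 24.7 TPM. Because the tissue was profiled in bulk, fewer cells of a type and less RNA per cell cannot be told apart.

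A gene was called detected when its TPM was 1 or more in each library, which held for 34 of the 39 members, where 59.4% of all protein-coding genes were detected. All 12 axonal transport kinesins were detected, as were 11 of 12 mitotic, 7 of 9 ciliary and 4 of 6 other members. The 5 members below the limit were Kif27, Kif17, Kif12, Kif28 and Kif2b. Just inside the limit was Kif19a at 1.32 and 1.22 TPM, and just outside was Kif27 at 0.96 and 1.56. Summed over the family the level was 1102 and 1052 TPM.

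The mitotic and the axonal transport classes stood close together, and the ciliary class was far lower. The median member of the mitotic class had 28.1 ± 1.80 TPM, that of the axonal class 23.1 ± 1.65 and that of the ciliary class 2.21 ± 0.460. On the log2(TPM + 1) scale the mitotic median exceeded the axonal median by 0.31 in pool 1 and 0.32 in pool 2, and exceeded the ciliary median by 3.10 and 3.27. The axonal median exceeded the ciliary median by 2.80 and 2.96. The gap to the ciliary class was many times the spread between the pools in either case. The small gap between the mitotic and axonal classes was equal in the pools but depended on the summary, with 0.07 when means over members replaced medians. In mean TPM the axonal class was the higher, at 39.4 against 36.4. In TPM, the mitotic class made up 40.5 ± 2.49% of the family and the axonal class 44.0 ± 2.71%. The order of these shares reversed between the pools, with 42.3% mitotic and 42.0% axonal in pool 1 against 38.7% and 45.9% in pool 2. Ciliary members made up 9.05 ± 0.115%, most of it from Kif3a.

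**Figure D1:**
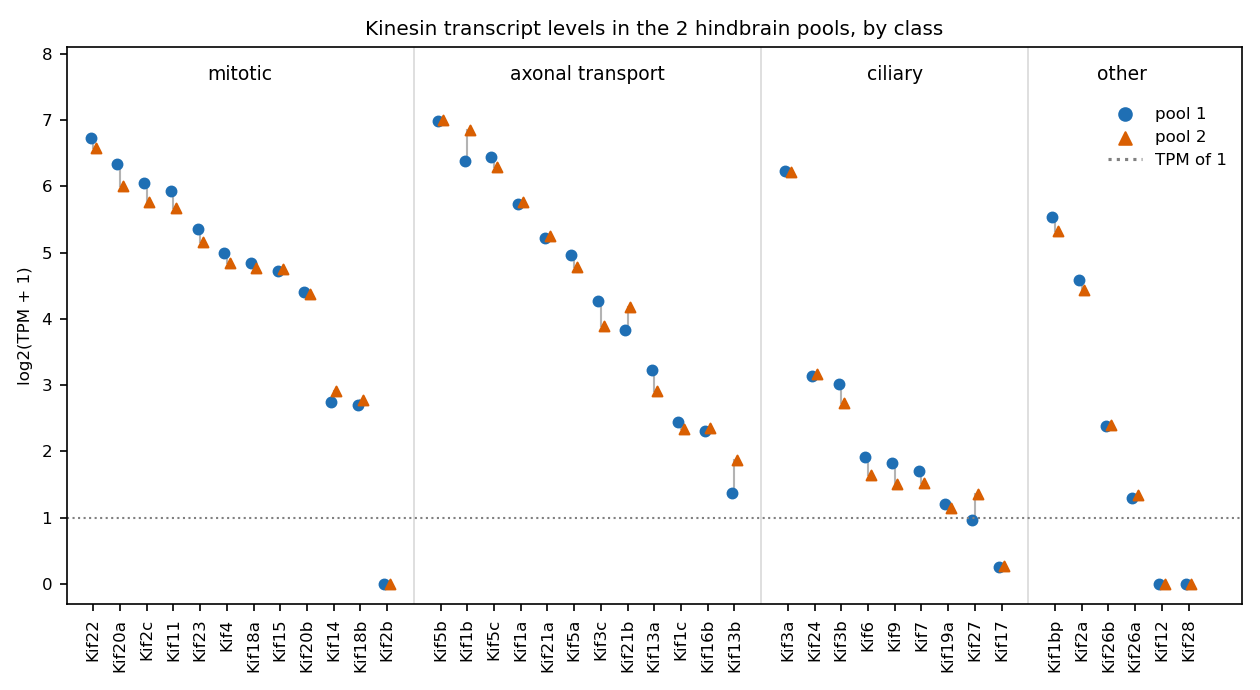
Level of each of the 39 members as log2(TPM + 1), with pool 1 as blue circles and pool 2 as orange triangles, grouped by class and ordered by mean level within the class. Mitotic and axonal members span a wide range of levels, Kif3a stands far above the other ciliary members, and 3 members lie at 0 in both pools.

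Among the mitotic members, the highest was Kif22, also called Kid, a chromokinesin that binds chromosome arms and pushes them towards the spindle equator. Kif22 (ENSMUSG00000030677, chromosome 7, 127027729 to 127042471) stood at 105 and 94.8 TPM. Kif20a, which carries the chromosomal passenger complex to the central spindle for cytokinesis, stood at 80.1 and 63.0 TPM. Both are motors that work on chromosomes or on the midzone, and the level of Kif22 exceeded that of Kif20a in each library. Kif2c, also called MCAK, which takes microtubule ends apart at the centromere, stood at 65.1 and 53.3 TPM. Kif11, or Eg5, the motor that slides spindle poles apart, stood at 59.8 and 49.8 TPM. Each library gave the order Kif20a, Kif2c, Kif11. The range of Kif2c over the libraries overlapped those of both others, while Kif20a and Kif11 did not overlap.

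A middle tier followed. Kif23 (40.0 and 34.8 TPM) is the motor of the centralspindlin complex, which positions the cleavage furrow. Kif4 (30.99 and 27.6) is a chromokinesin that acts with condensin and on the central spindle, Kif18a (27.8 and 26.1) dampens chromosome movement at the metaphase plate, Kif15 (25.4 and 25.8) helps to hold the spindle bipolar and Kif20b (20.2 and 19.8) acts in abscission. The lowest detected mitotic members were Kif14 (5.70 and 6.49), which works in cytokinesis with citron kinase, and Kif18b (5.49 and 5.84), which shortens astral microtubules. Kif2b, a relative of Kif2c described in spindle assembly, had 0 reads in each library. A count of 0 allows up to 3 counts, equal to 0.0476 and 0.0495 TPM. That limit covers counting error only. Every mitotic motor but Kif2b was thus detected, with mean levels from 5.67 to 99.9 TPM.

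The motors' partners in the spindle were expressed with them. All 14 listed spindle genes were detected, and their median was 97.3 ± 9.32 TPM. The kinase Cdk1 stood highest at 291 and 238 TPM, ahead of the passenger complex members Birc5 (226 and 204) and Cdca8 (144 and 131), while Incenp, the scaffold of that complex, was lowest at 38.9 and 32.7. Relative to the median gene, 0 of these 14 differed more than 1.5-fold between the pools, where 3.15% of protein-coding genes did. Of motors outside the naming rule, Cenpe, the kinetochore motor, stood at 28.6 and 29.8 TPM, within the range of the middle tier. Kifc1, a minus-end motor of the spindle, stood at 7.54 and 3.67 TPM and its near-identical copy Kifc5b at 1.27 and 1.72, so reads may be split between them. Relative to the median gene, log2 of pool 2 over pool 1 was -0.76 for Kifc1 and 0.37 for Kifc5b. Of the 5 listed motors outside the rule, Kifc1 was the 1 that differed more than 1.5-fold. Kifc3, a minus-end motor of the same family, stood at 3.70 and 3.25.

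Many cell cycle genes expressed late in the cycle carry in their promoters a CHR element, spelled TTTGAA or TTCGAA, often a short distance from a CCAAT box. Promoter windows of 250 bases before and 50 after the start, from RefSeq on GRCm38.p6, were matched for 31 of the 39 members, and both motifs were searched on both strands. Part of the windows of Kif22, Kif11 and Kif15 is shown, 70 bases each up to the start, because the mitotic genes with the CHR element close to the start are best compared side by side. Kif11 and Kif15 were chosen for display after their matches were seen. Capitals mark the CHR element (TTCAAA when read on the opposite strand) and the CCAAT box (ATTGG when read on the opposite strand). The fourth stretch, from Kif1b, the highest axonal member with a window, covers bases -160 to -71, where its CCAAT boxes lie.
Kif22, chr7:127042421-127042490, minus strand: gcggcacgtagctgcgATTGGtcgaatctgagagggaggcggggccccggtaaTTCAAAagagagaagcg
Kif11, chr19:37376312-37376381, plus strand: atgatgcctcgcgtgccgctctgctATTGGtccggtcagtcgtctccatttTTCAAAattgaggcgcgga
Kif15, chr9:122951011-122951080, plus strand: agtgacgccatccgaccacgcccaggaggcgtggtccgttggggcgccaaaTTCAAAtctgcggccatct
Kif1b, chr4:149307804-149307893, minus strand: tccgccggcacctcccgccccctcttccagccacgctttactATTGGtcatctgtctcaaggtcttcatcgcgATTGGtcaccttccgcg

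In Kif22 the CHR element nearest the start began 17 bases before the start and in both Kif11 and Kif15 it began 19 bases before. Kif22 and Kif11 carried a CCAAT box upstream of it, beginning at -54 and -45, while the window of Kif15 held none. The GENCODE models of Kif22 and Kif15 begin upstream of the RefSeq start, so a part of each printed stretch lies inside those models.

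A CHR element was present in 9 of the 11 mitotic members with a window (Kif11, Kif14, Kif15, Kif18b, Kif20b, Kif22, Kif23, Kif2c and Kif4), compared with 19.2% of all 32851 promoter windows. It was found in 1 of 8 axonal members (Kif1a), 2 of 8 ciliary members (Kif24 and Kif27) and 1 of 4 others (Kif26b). Both motifs together were found in 6 of the 11 mitotic members and in 7.52% of all windows. The pair was also present in 2 of 8 ciliary members (Kif24 and Kif27) and 1 of 4 others (Kif26b), and in 0 of 8 axonal members. Counting only elements that began within 30 bases of the start, a distance chosen after the matches were seen, 7 of 11 mitotic members held one, against 3.397% of all windows. So did 0 of 8 axonal members, 1 of 8 ciliary members (Kif24) and 1 of 4 others (Kif26b). The CCAAT box alone separated the classes less, with 7 of 11 mitotic, 5 of 8 ciliary and 1 of 8 axonal members against 37.4% of all windows. Kif18a and Kif2b were the mitotic members without a CHR match. Kif2b had 0 reads, whereas Kif18a was well detected. E2F sites, GC boxes and TATA boxes were searched in the same windows. An E2F site was found in 2 of 11 mitotic members (Kif15 and Kif18a), against 1.84% of all windows. No member of another class had one. GC boxes were found in 6 of 11 mitotic, 6 of 8 axonal, 6 of 8 ciliary and 3 of 4 other members. Their share of all windows was 35.7%. TATA boxes were found in 1, 1, 2 and 0 members in the same order, against 13.6% of all windows. Among members with a CHR match, the RefSeq start lies inside the GENCODE gene for the axonal Kif1a, the mitotic Kif2c, Kif14 and Kif4 and the ciliary Kif24 and Kif27, besides Kif22 and Kif15. Distances of these members from the GENCODE start differ, so the count within 30 bases holds for the RefSeq start only. The X-box motif, to which the ciliary RFX factors bind, was searched in a single fixed spelling. It had no match in any member's window, where 0.298% of all windows had one. At so low a rate, a lack of matches in so few windows cannot show that RFX sites are absent. A match describes the letters in these windows and was not tested for binding.

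**Figure D2:**
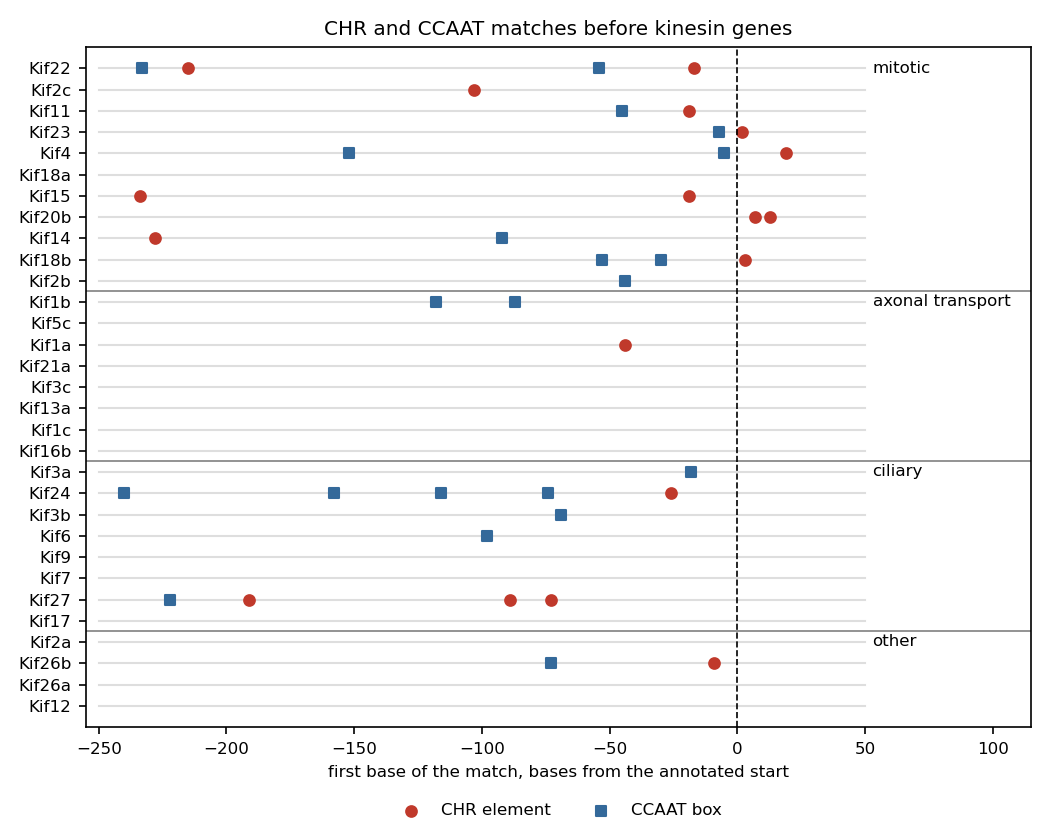
Position of each CHR element (red circles) and CCAAT box (blue squares) in the promoter windows of 31 members (1 window per member), in bases from the annotated start (dashed line), with members grouped by class. CHR elements lie in 9 of 11 mitotic windows, and in 7 of these 11 one begins within 30 bases of the RefSeq start.

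Among the motors of axonal transport, the conventional kinesin heavy chains were abundant. Kif5b, the form made in most cell types (ENSMUSG00000006740, chromosome 18, 6201002 to 6242174), was the highest member of the family at 126 and 126 TPM. The neuron-enriched Kif5c (86.2 and 77.0) and Kif5a (30.1 and 26.7) ranked below it. The order Kif5b, Kif5c, Kif5a was the same in both libraries and the ranges did not overlap. With complete coding transcripts alone Kif5b (53.1 and 56.3) was below Kif5c (86.1 and 76.9), again without overlap. The kinesin-1 light chain Klc1, which links these motors to cargo, was at 261 and 253 TPM, the highest of 18 listed adaptors and accessory subunits. All 18 were detected, with a median of 22.2 ± 3.91 TPM, and Klc3 was the lowest at 1.77 and 1.60. The small GTPases Arl8b (68.2 and 61.4) and Arl8a (63.9 and 58.7), which recruit kinesins to lysosomes and synaptic vesicle precursors, came next after Klc1.

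The kinesin-3 motors that move vesicle precursors and mitochondria were led by Kif1b (ENSMUSG00000063077, chromosome 4, 149176319 to 149307693) at 82.4 and 114 TPM. Kif1a, the motor of synaptic vesicle precursors, stood at 52.4 and 53.4 TPM. Kif1bp, the binding protein named after Kif1b and a regulator of several kinesins, stood at 45.5 and 39.2 TPM. Its level was below that of both motors in each library, but with complete coding transcripts alone, a count described further on, it was above Kif1a (43.2 and 33.9 against 21.1 and 22.8 TPM). Other members of this family were lower, with Kif13a (8.4 and 6.49), Kif1c (4.46 and 4.04), the endosome motor Kif16b (3.93 and 4.10) and Kif13b (1.59 and 2.65). The kinesin-4 proteins Kif21a (36.1 and 37.2) and Kif21b (13.3 and 17.1) restrain microtubule growth in axons and dendrites. Kif3c, which pairs with Kif3a in neurons, stood at 18.4 and 13.8 TPM.

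Motors that move the opposite way along axons were present as well. All 12 listed dynein and dynactin genes were detected, and their median was 81.4 ± 1.71 TPM. The light chain Dynll1, shared with many other complexes, stood highest at 1165 and 1046 TPM, ahead of Dctn2 (144 and 129) and Dync1i2 (148 and 114.5). Dync1i1, the intermediate chain known from neurons, was the lowest at 2.72 and 2.52.

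In the ciliary class, most of the level lay with Kif3a, at a mean of 73.8 TPM of a class sum of 97.5. Kif3a and Kif3b form the heterodimer that carries cargo up the cilium, and also transport cargo elsewhere in the cell. Kif3a (ENSMUSG00000018395, chromosome 11, 53567379 to 53601967) stood at 74.0 and 73.6 TPM and Kif3b at 7.10 and 5.67, so the partners were far apart in transcript level in each library. Kif24, which caps centrioles and restrains cilium formation, stood at 7.78 and 7.99. Kif7, the motor at the cilium tip that shapes the hedgehog response of Gli factors, stood at 2.25 and 1.88. Kif6 (2.77 and 2.14) and Kif9 (2.53 and 1.84), known from motile cilia and sperm tails, were of like level, and their ranges overlapped. Retained-intron models held 88.4% and 75.2% of the Kif6 TPM, however. With complete coding transcripts alone Kif6 (0.32 and 0.53) was below Kif9 (2.53 and 1.85) in each library. Kif19a, which controls the length of motile cilia, stood at 1.32 and 1.22. Kif27, a relative of Kif7 needed for motile cilia, was under the limit in pool 1 only (0.96 and 1.56 TPM, from 123 and 193 reads). Kif17, a motor of dendrites and sensory cilia, was near the floor at 0.19 and 0.21 TPM, from 15 reads in each library.

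The machinery of primary cilia was more abundant than most ciliary kinesins. All 16 listed genes were detected, and their median was 15.97 ± 0.336 TPM, led by the intraflagellar transport genes Ift20 (80.6 and 76.7), Ift52 (44.7 and 43.1) and Ift57 (34.1 and 34.6), with the hedgehog effector Gli2 the lowest at 5.32 and 5.64. Markers of motile cilia were weaker, with 5 of 10 detected and a median of 2.65 ± 0.385 TPM. The regulators Rfx3 (27.3 and 28.8), which also acts on primary cilia, and Foxj1 (7.6 and 6.88) were highest, followed by Spag6l (5.25 and 4.92), while the central pair gene Hydin stood at 0.17 and 0.12.

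Members outside these classes ranged from abundant to silent. Kif2a, a microtubule depolymerase that trims axon branches and also acts at spindle poles, stood at 22.9 and 20.7 TPM. Kif26b (4.23 and 4.29) and Kif26a (1.47 and 1.54) encode atypical kinesins without motor activity that act in signalling. Kif12 and Kif28 had 0 reads in both libraries. A limit of 3 counts equals 0.0713 and 0.0742 TPM for Kif12 and 0.0305 and 0.0317 TPM for Kif28. No limit on the level per cell in a rare cell type follows from this.

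Placed in 1 order by mean TPM, the detected members ran from Kif5b (126) through Kif22 (99.9), Kif1b (98.1), Kif5c (81.6) and Kif3a (73.8) to Kif19a (1.27). Of the 33 neighbouring pairs in this order, 20 had overlapping ranges over the 2 libraries. Kif5b stood clear of Kif22, and Kif5c stood clear of Kif3a, but the range of Kif1b overlapped those of both Kif22 and Kif5c.

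This order depends on which annotated transcripts are counted. A library can also hold unspliced and fragmentary RNA, and a short model takes a large TPM from few reads. Of the 25 members with a mean TPM of at least 5, 17 had more than 85% of their TPM in complete coding transcripts (annotated as protein-coding with a full coding sequence) in both pools, whereas 5 had under 75% in both. A total of 13 members have 1 annotated transcript, so the question does not arise for them. This reading was added after the data were seen.

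Kif5b moved the most in absolute level. Its complete transcript Kif5b-201, of 6032 nt and 963 codons, had 53.1 and 56.3 TPM, and an incomplete model of 2006 nt, Kif5b-202, had 69.4 and 63.5. The incomplete model thus held 55.1% and 50.3% of the TPM but 29.5% and 26.4% of the reads. Counting complete transcripts alone, Kif5b ranked seventh at 54.7 ± 2.26 TPM, and Kif22 ranked first with 99.9 ± 7.18, followed by Kif5c (81.5 ± 6.52), Kif20a (71.6 ± 12.1) and Kif1b (62.9 ± 1.03).

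Kif1a moved from 52.9 to 21.96 ± 1.202 TPM by the same count. A 528-nt model, Kif1a-206, held 40.5% and 32.2% of the gene's TPM from 267 and 209 reads, and a 570-nt model, Kif1a-208, a further 18.8% and 24.9%. Complete transcripts held 91.0% and 91.7% of the Kif1a reads. For Kif3a the complete transcripts came to 54.2 TPM in each library, and a 770-nt model annotated for nonsense-mediated decay, Kif3a-206, held 14.8 and 17.5 TPM. Among weaker members, complete transcripts lowered Kif24 to 2.02, Kif6 to 0.43 and Kif19a to 0.32 TPM, and 32 members in place of 34 were detected. Class medians by this count were 26.4 TPM for mitotic, 19.03 for axonal and 2.00 for ciliary members, and the order of the classes was the same.

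**Figure D3:**
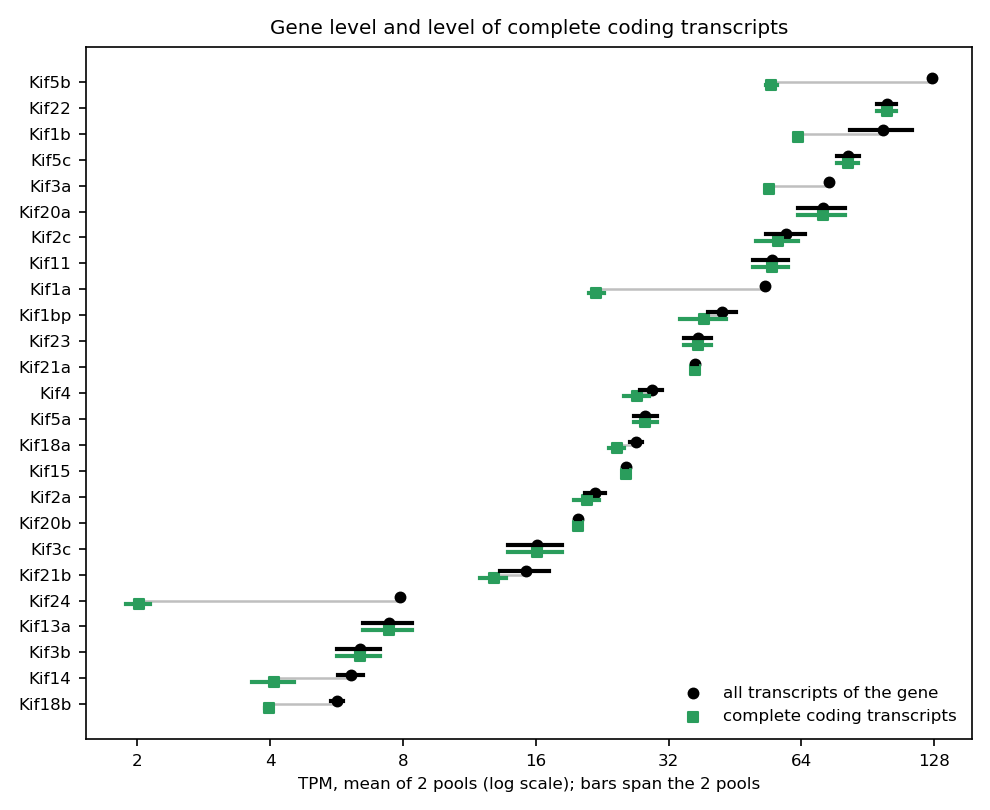
Mean TPM over the 2 pools, on a log scale, of each member with a mean of at least 5, for all transcripts of the gene (black circles) and for complete coding transcripts (green squares), with bars spanning the pools. Kif5b, Kif1b, Kif3a, Kif1a and Kif24 lie well to the left when only complete coding transcripts are counted, and Kif22, Kif5c and Kif11 hardly move.

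Between complete transcripts of the same gene, the data gave the share of messages that encode alternative proteins. Protein was not measured. Kif1b makes a short and a long motor that differ after a shared front part, and the short form is known for carrying mitochondria and the long form for vesicle precursors. The 2 messages part at the end of a shared exon, as the following stretches show, with the last 30 shared bases in lower case and the first 30 that each form has of its own in capitals. The last shared base is chromosome 4 position 149245338 on mm10, minus strand, and the forms continue at 149238483 and 149226356.
Kif1b-201, short form, 1150 codons: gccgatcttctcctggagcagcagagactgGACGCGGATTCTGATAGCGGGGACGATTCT
Kif1b-203, long form, 1816 codons: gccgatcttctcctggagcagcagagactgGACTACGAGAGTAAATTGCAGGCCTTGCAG

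The long form stood at 38.4 and 38.7 TPM and the short form at 25.3 and 23.5. Of the complete Kif1b transcripts, the long form made up 61.2 ± 1.27% and the short form 38.8 ± 1.30%. The difference between the forms exceeded the spread of the pools for each of them.

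Small in-frame exons were compared between chosen forms of Kif21a, Kif3a and Kif1a only, and other members were not searched for them. In these 3 members such exons were used in part of the messages. They are printed because the shares of the forms turn on them. Capitals mark the alternative bases and lower case the 15 neighbouring bases of the message on each side, and positions are on mm10.
Kif21a, chr15:90964975-90964995, minus strand, 7 codons: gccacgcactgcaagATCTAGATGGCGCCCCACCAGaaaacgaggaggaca
Kif21a, chr15:90949006-90949044, minus strand, 13 codons: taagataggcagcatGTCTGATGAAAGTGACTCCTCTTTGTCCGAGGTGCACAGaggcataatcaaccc
Kif21a, chr15:90976471-90976509, minus strand, 13 codons: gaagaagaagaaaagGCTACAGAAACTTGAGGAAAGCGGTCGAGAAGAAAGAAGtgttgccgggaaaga
Kif3a, chr11:53590717-53590725, plus strand, 3 codons: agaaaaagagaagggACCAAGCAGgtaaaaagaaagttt
Kif3a, chr11:53593374-53593394, plus strand, 7 codons: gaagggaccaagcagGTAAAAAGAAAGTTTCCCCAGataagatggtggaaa
Kif1a, chr1:93026832-93026855, minus strand, 8 codons: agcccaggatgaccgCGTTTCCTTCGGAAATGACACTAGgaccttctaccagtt

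In Kif21a the exon of 21 nt was included in 64.3 ± 2.18% of complete coding transcripts by TPM, the exon of 39 nt at 90949006 in 51.3 ± 5.06% and the exon of 39 nt at 90976471 in 14.6 ± 2.53%. The same minor transcript also holds exons of 108 nt and 129 nt, included in 14.6 ± 2.53% and 15.7 ± 2.88%. Inclusion of the first exceeded that of the last by far more than the pools differed. In Kif3a the exon of 9 nt was included in 85.7 ± 1.27% and the adjoining stretch of 21 nt, which lies at the edge of a larger exon, in 77.7 ± 0.206%. In Kif1a the exon of 24 nt was included in 46.4 ± 0.972%, so that by TPM both forms were near equal. By reads Kif1a-204, the 1 complete model with the exon, held 50.8% and 52.4% of the gene. Kif1a-203, without it, held 33.6% and 32.9%. These models (8206 and 5391 nt) also differ at the 3' end, as do Kif3a-203 (3161 nt) and Kif3a-208 (2257 nt). The shares therefore do not rest on the small exons alone. These shares come from the authors' transcript estimates, and reads that span each junction were not counted here.

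The pools were close to each other for nearly all members. Among the 35 members with a mean TPM of at least 1, 29 lay within 1.2-fold of the median gene, 17 were lower in pool 2 than that gene and the other 18 higher. Over 1.5-fold apart was 1 member, where 5.98% of all 14942 genes at this level and 3.15% of protein-coding genes were so. That member was Kif13b, a kinesin-3 motor that binds the scaffold protein Dlg1, with 1.59 and 2.65 TPM from 257 and 412 reads, 1.52-fold higher in pool 2 relative to the median gene. The share higher in pool 2 by that much was 4.35% of all genes and 2.07% of protein-coding genes, so a count of 1 in 35 is near the background. The authors' TPM intervals for Kif13b did not overlap (1.38 to 1.76 and 2.36 to 2.86). Nor did those of Kif22 (100.4 to 105.6 and 90.4 to 95.4), whose relative log2 ratio was only -0.04. Each interval comes from a single library and holds no spread between replicates. Just under the limit were Kif1b (1.48-fold), Kif27 (1.41-fold) and Kif21b (1.37-fold), all higher in pool 2. Furthest in the other direction was Kif3c, with a relative log2 ratio of -0.28.

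By class, the median log2 ratio of pool 2 over pool 1 relative to the median gene was -0.04 for mitotic, 0.12 for axonal and -0.01 for ciliary members. The spread among members of a class was wider than these medians, from -0.23 (Kif20a) to 0.27 (Kif14) in the mitotic class and from -0.28 (Kif3c) to 0.60 (Kif13b) in the axonal class. Of the 4 highest mitotic motors, Kif22 stood near the median gene with a relative log2 ratio of -0.04, and Kif20a, Kif2c and Kif11 had -0.23, -0.18 and -0.15. Of the 11 mitotic members tested, 6 were lower and 5 higher in pool 2. The 14 spindle partners had a median of -0.09, from -0.35 (Racgap1) to 0.17 (Mki67). The 6 progenitor markers had a median of 0.01 and summed to 2367 and 2141 TPM, with none at 0, and among them Hes5 (202 and 109 TPM, -0.78) and Sox2 (25.2 and 15.4, -0.57) were lower in pool 2 and Nes (52.2 and 57.6, 0.25) higher. Of 5 skeletal muscle genes 4 were over 1.5-fold lower in pool 2, where 3.15% of protein-coding genes were so far apart in either direction. The part of progenitor and muscle cells in these values was not tested.

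**Figure D4:**
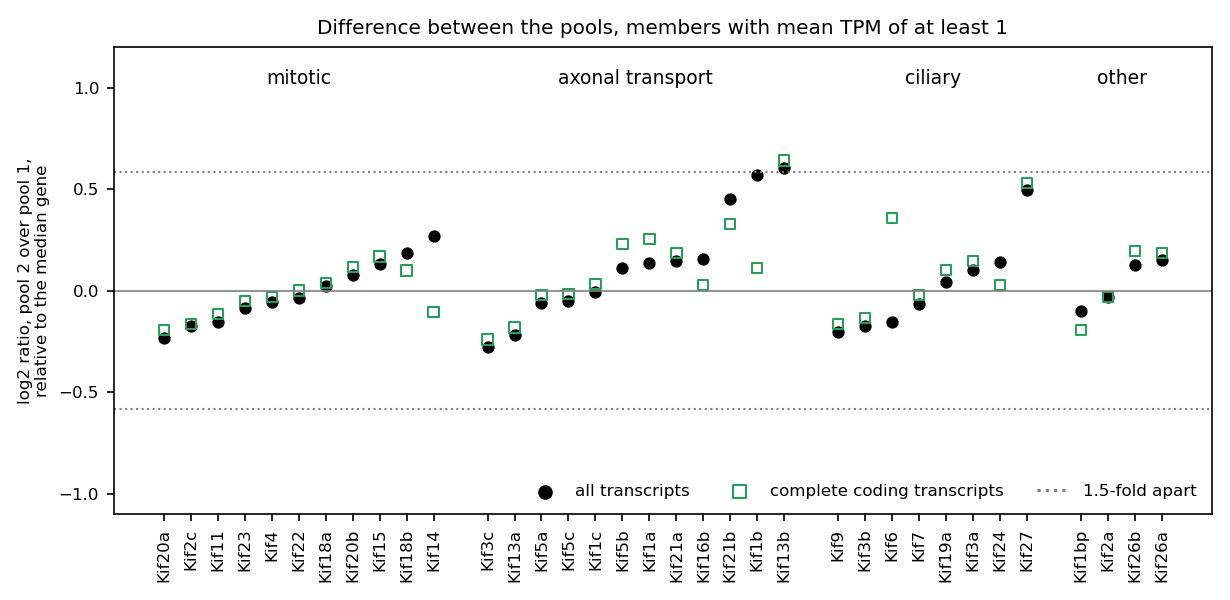
Log2 ratio of pool 2 over pool 1 for the 35 members with a mean TPM of at least 1, relative to the median gene, for all transcripts (black circles) and complete coding transcripts (green open squares). Dotted lines mark 1.5-fold. Kif13b lies beyond the upper line by either count, and Kif1b drops from 0.57 to 0.11 when only complete coding transcripts are counted.

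The difference in Kif1b lay in transcripts that keep intron sequence. Kif1b-205, a 587-nt model annotated as a retained intron, stood at 16.3 and 41.5 TPM from 234 and 572 reads, and covers 176 bases of the intron between positions 149276924 and 149291301 on chromosome 4. Another such model, Kif1b-209, stood at 1.23 and 7.22 TPM. The 2 coding forms were level between the pools, and the complete coding transcripts summed to 63.7 and 62.2 TPM. Kif14 showed the same form of difference. Its model Kif14-202 keeps a whole intron of 1125 bases (chromosome 1, 136494731 to 136495855) and stood at 1.17 and 2.84 TPM, while the coding Kif14-203 stood at 4.53 and 3.65. In Kif21b both the retained-intron model Kif21b-203 (0.37 and 1.22) and the coding Kif21b-201 (11.97 and 13.7) were higher in pool 2.

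**Figure D5:**
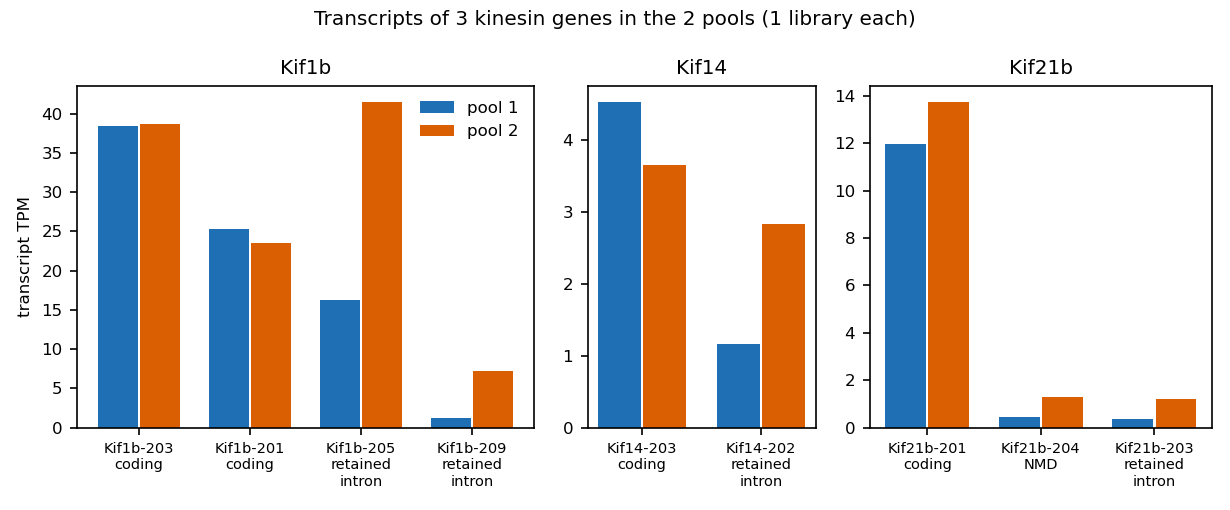
TPM of single transcripts of Kif1b, Kif14 and Kif21b in pool 1 (blue bars) and pool 2 (orange bars), with 1 library per bar and a separate scale in each panel, and NMD standing for nonsense-mediated decay. The retained-intron models are higher in pool 2 in all 3 genes, while the coding transcripts of Kif1b differ little between the pools and that of Kif14 is lower in pool 2.

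The retained-intron share of TPM was 20.5% and 43.8% for Kif14 and 22.7% and 45.3% for Kif1b. Such a model exists for 9 members whose mean TPM is 5 or more. Of these 2 had a share at least 5 percentage points higher in pool 2, and 20.1% of 4455 protein-coding genes did so. The share was higher in pool 2 in 7 of the 9 members and in 3164 of the 4455 genes, so the direction was that of the libraries as a whole. The nuclear RNA Malat1 was likewise higher in pool 2, at 2872 and 4761 TPM. Its part, and that of nuclear or unspliced RNA in the libraries, in the values of Kif1b and Kif14 was not tested.

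Some levels may hold reads of a neighbour. The sources used here do not give the strand setting of the counting, and 15 members have an exon that overlaps another gene's exon, 8 of them with a gene of at least 1 TPM in the mean. Among genes of at least 1 TPM, the largest overlaps on the opposite strand were those of Kif3c with 1110002L01Rik (2617 bases, 18.9 and 18.4 TPM), Kif20a with Cdc23 (1271 bases, 114.6 and 92.7 TPM), Kif2a with Dimt1 (1229 bases, 22.8 and 21.02 TPM) and Kif4 with Pdzd11 (832 bases, 108 and 99.8 TPM). For Kif20a, Kif2a, Kif3c and Kif4 the expected counts were not whole numbers, whereas those of Kif22, Kif11 and Kif5c were whole. Fractional counts did not follow the overlaps throughout. Kif24 (488.7 in pool 1) had a fractional count without an overlap, and Kif22 and Kif18a (2644 and 2370) had whole counts with one. Sharing of reads was not tested.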

How the data were processed

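The authors deposited, for each library, a gene table and a transcript table on mm10 with GENCODE M4 annotation, per the labels and the readme. Per the file headers they hold an expected count (an estimated count, not always whole), TPM, FPKM and an interval for TPM of unstated level. RNA was extracted with mirVana and a Smart-Seq protocol is cited, per the labels. Aligner, quantification tool and strand setting were not given in the sources used here.

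Symbols, types and coordinates came from GENCODE vM21 by Ensembl identifier (42462 of 43346 matched), and promoters from RefSeq. Of 157 matched member transcripts, 20 have another length there. Sums, medians and log2(TPM + 1) ratios were computed in Python 3.11.15 with NumPy 2.4.6, pandas 2.3.3 and Matplotlib 3.10.9. Scaling factors from edgeR 4.0.16 (TMM) and DESeq2 1.42.0 in R 4.3.3 served as alternatives on rounded expected counts. The ratio step was tested on simulated data. No test between groups was run, because both samples are in 1 group. Depth was 45340440 and 41261544 expected counts.

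Members, classes and lists were chosen with earlier results of these data known. All members are named. The rule allowed naming transcripts of a member whose mean TPM is 5 or more if at least 2 of them each held 10% or more in both pools, of which only some are named, and the 3 highest and the lowest gene of each partner list. Transcripts and genes outside it (Kif1b-209, Kif21b-201, Kif21b-203, Racgap1, Mki67, Sox2 and Nes) were chosen for naming with their values in view. The rule also asked for the promoter of the highest member of each class, and those of the ciliary and other classes are not printed because no result turns on them. Promoters of 8 members and protein sequences were not used here.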

Additional observations from a re-analysis of the deposited data

How the results depend on the processing

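Of 39 members, between 25 and 35 were detected under all alternatives tried (other TPM limits, FPKM, each library alone, complete coding transcripts, leaving out Kif1bp). The class order mitotic, axonal, ciliary held with FPKM, rescaled TPM, complete coding transcripts and each library alone. With means over members, the axonal level (39.4 TPM) exceeded the mitotic (36.4) and the ciliary mean was 10.8. With FPKM the medians were 18.7, 15.3 and 1.47, with TPM rescaled over protein-coding nuclear genes 40.1, 32.9 and 3.13, and the axonal median with complete coding transcripts was 19.03. The log2 difference of mitotic over axonal was 0.32 with a pseudocount of 0.1, 0.31 with FPKM, 0.072 with means, 0.37 with members of at least 1 TPM, 0.35 with Kif2a as axonal and 0.47 with complete coding transcripts. Mitotic over ciliary was 3.63 with the pseudocount of 0.1, 3.004 with FPKM, 3.32 rescaled and 2.30 with means. Axonal over ciliary was 3.30, 2.70, 3.004 and 2.23 in the same order, and 2.72 with complete coding transcripts. Of family reads (expected counts) the mitotic, axonal and ciliary classes held 33.3%, 55.8% and 5.37%, and of complete coding TPM 47.7%, 37.4% and 7.74%. With Kif3a and Kif3b as axonal, the axonal share was 51.4% and the ciliary share 1.61%. Over 1.5-fold apart were 2 members with a pseudocount of 0.1, with TMM-scaled expected counts and with counts over DESeq2 size factors (Kif13b and Kif27 each time). Of all genes, 9.74%, 4.04% and 9.34% were so far apart in these settings. With FPKM and without a filter 0 members were, against 4.65% and 3.03% of all genes. With a minimum mean of 5 TPM, Kif1b was the 1 member over 1.5-fold apart, against 2.73% of all genes. Kif1b had a relative log2 ratio of 0.18 with either count scaling. Of 24 transcript shares, 16 moved beyond the spread of the pools when reads replaced TPM. The cause of these changes was not tested. No paired analysis was possible because there is 1 group. Depth limits Kif17, with 15 reads in each library.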
